A study of Mus musculus with 24 samples.

Results

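Collagens are the main fibrous proteins of the extracellular matrix, and their genes were followed here across brown adipose tissue of mice under drug treatment and pair feeding. The members are the rows of the deposited table whose gene symbol consists of Col, a type number, the letter a and a chain number. This gave 41 of 23017 genes. Of these, 24 passed the filter on low values and were tested, and 17 lay below it. The members were sorted by their textbook class into 10 fibrillar genes (7 tested), 8 basement membrane genes (6 tested) and 23 other genes (11 tested). Col2a1, Col6a4 and Col9a2 had no row and were not analysed here.

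PolyA RNA of brown fat from C57BL/6J mice was sequenced in 24 libraries, 6 for each of 4 groups, which the labels name Vehicle, LAGIPRA, TZP and PairFedVehicle. Vehicle mice received vehicle alone. LAGIPRA stands for a long-acting agonist of the receptor for GIP, a gut hormone released after meals. TZP is tirzepatide, an agonist at both the GIP and the GLP-1 receptor. PairFedVehicle mice received vehicle and a set food ration; the sources used here name neither the group that set the ration nor the doses, the length of treatment, sex, age or diet. The series title places the work in obese, insulin-resistant mice. The 3 comparisons with Vehicle share their controls, so likeness between them is not independent, and each is given with its own values. In bulk tissue, fewer cells of a type and less RNA per cell cannot be told apart.

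Collagen chains wind around each other into a triple helix in the endoplasmic reticulum, where prolyl and lysyl hydroxylases modify them and chaperones guard the fold. Fibrillar collagens are then trimmed, assembled into fibrils and crosslinked, mostly around fibroblasts and their relatives. Basement membrane collagens instead form a sheet-like network with laminins and nidogens around adipocytes, nerves and blood vessels. The remaining types bind fibrils, form beaded microfibrils, span the cell membrane or build short-chain networks.

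Promoter windows of 4 members are printed because their genes differed in how they varied between libraries. Each runs from 250 bases before to 50 bases after the RefSeq start site in GRCm38.p6. Col4a1 and Col4a2 encode the chains of the common type IV collagen, and their start sites lie 21 bases apart on opposite strands of chromosome 8, so their windows share 78 bases. The Col4a2 window lies on the plus strand at chr8:11312555-11312854 and the Col4a1 window on the minus strand at chr8:11312777-11313076. Col1a2 (plus strand, chr6:4505368-4505667) and Col3a1 (plus strand, chr1:45311288-45311587) encode chains of the fibrillar types I and III. Capitals mark matches on either strand to 3 common promoter motifs. The TATA box was searched as TATAAA. The CCAAT box was searched by the letters of its name. The GC box was searched as GGGCGG. No matches overlapped in these 4 windows.
Col4a2: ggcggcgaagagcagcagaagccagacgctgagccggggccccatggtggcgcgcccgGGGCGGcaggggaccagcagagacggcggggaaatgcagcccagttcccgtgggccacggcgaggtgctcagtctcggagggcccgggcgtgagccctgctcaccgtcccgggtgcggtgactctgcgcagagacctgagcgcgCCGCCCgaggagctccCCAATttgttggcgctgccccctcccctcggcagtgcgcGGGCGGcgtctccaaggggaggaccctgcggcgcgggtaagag
Col4a1: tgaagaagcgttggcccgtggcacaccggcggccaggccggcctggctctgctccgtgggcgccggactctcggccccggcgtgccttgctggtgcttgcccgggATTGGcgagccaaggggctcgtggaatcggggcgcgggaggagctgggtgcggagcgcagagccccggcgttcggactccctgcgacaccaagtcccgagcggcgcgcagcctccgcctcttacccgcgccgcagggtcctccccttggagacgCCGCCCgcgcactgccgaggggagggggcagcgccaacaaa
Col1a2: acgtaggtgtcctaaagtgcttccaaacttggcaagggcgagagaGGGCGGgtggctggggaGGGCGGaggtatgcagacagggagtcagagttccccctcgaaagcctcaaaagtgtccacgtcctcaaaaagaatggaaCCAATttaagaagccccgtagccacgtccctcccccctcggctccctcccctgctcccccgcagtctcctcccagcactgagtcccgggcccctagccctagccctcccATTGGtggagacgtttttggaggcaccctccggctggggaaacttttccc
Col3a1: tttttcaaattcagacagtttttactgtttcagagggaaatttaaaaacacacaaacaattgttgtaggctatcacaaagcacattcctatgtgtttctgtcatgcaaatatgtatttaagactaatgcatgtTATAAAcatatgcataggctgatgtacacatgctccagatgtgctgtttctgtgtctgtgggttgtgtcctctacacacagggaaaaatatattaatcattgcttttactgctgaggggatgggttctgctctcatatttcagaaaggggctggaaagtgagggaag
The shared stretch near the right end of both type IV windows held a GC box match, and the Col4a2 window held 3 GC box matches and 1 CCAAT match in all. The Col1a2 window held 2 CCAAT and 2 GC box matches, and the Col3a1 window held 1 TATA box match and none of the others. Of 32851 promoter windows of this length in the table, 13.6% held the TATA box letters, 37.4% the CCAAT box and 35.7% the GC box. Windows were found for 19 of the 24 tested members, and 3, 6 and 10 of them held these motifs in that order. A match is a description of letters and not a site of binding.

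Levels of the tested members covered a wide range. Per 1000 bases of transcript, on the log2 scale, Col3a1 was highest with a mean of 8.42 over all libraries. Col4a1 followed at 7.68, Col4a2 at 7.23, Col1a2 at 7.21 and Col1a1 at 7.05. The lowest tested members per length were Col28a1 at 1.11, Col12a1 at 1.21 and Col19a1 at 1.38. The 17 members below the filter had means from 0.058 (Col9a1) to 2.69 (Col4a5) on the scale not divided by length. They held 3 fibrillar genes (Col11a1, Col11a2 and Col24a1), 2 type IV chains (Col4a5 and Col4a6) and 12 others, and they entered a fit only where the filter was dropped as an alternative.

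The libraries differed in a property that touches these genes. The tested collagens have long transcripts, with a median of 5762.5 bases (3130 to 11511) against 2914 over all tested genes. Values of long genes relative to short ones, expressed as a length slope in log2 per doubling of transcript length, ran from 0.014 to 0.058 in the Vehicle libraries. In the TZP libraries the slope was 0.018 and 0.020 in 1 and 2, but -0.064, -0.088, -0.117 and -0.165 in 3 to 6. LAGIPRA and PairFedVehicle libraries had slopes from -0.0055 to 0.048. Of 7 brown adipocyte markers, Ucp1 ran from 14.7 to 15.9 and Cidea from 12.7 to 13.8, and the lowest, Ppargc1a, from 4.12 to 6.50. Skeletal muscle markers were near absent in Vehicle 1, TZP 3 and PairFedVehicle 5.

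**Figure D1:**
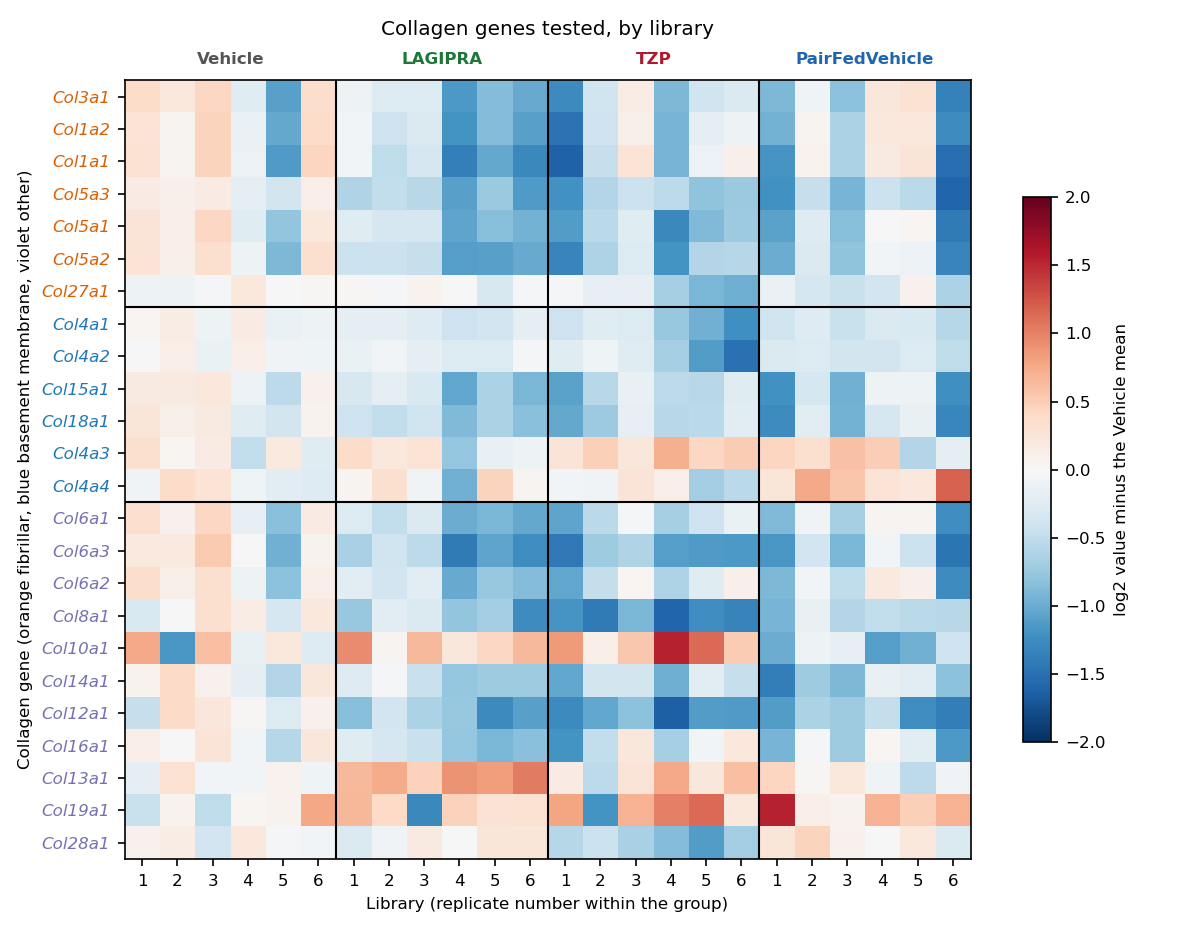
Log2 value of each of the 24 tested collagens (rows, by class) in each of the 24 libraries (columns, by group), minus the mean of the 6 Vehicle libraries, from -2 (blue) to 2 (red). Type I, III, V and VI genes share columns of low values inside every group, including Vehicle 5, while Col4a1 and Col4a2 are low mainly in TZP 4, 5 and 6.

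The comparison of TZP with Vehicle asked how brown fat expression differed under tirzepatide from that of mice given vehicle alone. Of 24 tested collagens, 12 fell and 1 rose at an adjusted p of at most 0.05. Over all tested genes 22% passed in either direction and 10.3% passed as lower. Among all tested genes of 5000 bases or longer the share lower was 39.3%, against 5.02% of shorter genes. The median log2 change was -0.52 over the collagens, 0.04 over all genes and -0.32 over the long genes. In 5 of 24 collagens the 6 TZP values all lay below the 6 Vehicle values, against 2.05% of all tested genes. Without Vehicle 6, and likewise without TZP 4, 8 collagens passed instead of 13. The share of all genes in those fits is not given here, so the drop cannot be read as particular to collagens.

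By class, 4 of 7 fibrillar genes fell (median -0.52), 3 of 6 basement membrane genes (median -0.53) and 5 of 11 others (median -0.48), and the 1 that rose, Col10a1, was in the last class. The medians of the 3 classes were close together. Of 7 fibroblast markers 2 passed as lower (Pdgfra and Cd34), where 10.3% of all genes did, and 5 had changes below 0. The means of Pi16 (6.06 in Vehicle and 6.22 in TZP) and Clec3b (8.37 and 8.39) were slightly higher in TZP. The summed level of the 7 markers, the log2 of the added linear values, ran from 10.4 to 10.8 in Vehicle and from 9.94 to 10.5 in TZP. No marker was at the zero level in any library. Of 7 macrophage markers 1 was lower (Mrc1), with a summed level from 11.47 to 12.7 in Vehicle and from 11.2 to 12.2 in TZP, and the median change was -0.51. Of 7 brown adipocyte markers 2 were higher (Ucp1 and Cidea), with a summed level from 15.9 to 16.2 in Vehicle and from 16.1 to 16.7 in TZP. Over all tested genes 22% passed in either direction. The sum leans on the strongest markers, Ucp1 and Fabp4. The mean of the 7 markers ran from 10.97 to 11.28 in Vehicle and from 10.92 to 11.67 in TZP. The part of the numbers of these cells in the result was not tested.

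Among the fibrillar genes, the type V chains fell and the more abundant type I and III chains did not pass. A difference in change between these chains was not tested. Col5a3 (Entrez 53867), a type V chain found in fat and muscle matrix, had a lowest, median and highest value of 8.63, 9.12 and 9.17 in Vehicle and of 7.79, 8.34 and 8.58 in TZP. All TZP values lay below all Vehicle values, and the log2 change was -0.72 (SE 0.178, adjusted p = 0.00729). Type V chains sit inside type I fibrils and limit their width. Col5a1 (Entrez 12831) ran from 7.49 through 8.44 to 8.68 in Vehicle and from 6.99 through 7.47 to 8.03 in TZP (-0.80, SE 0.249, adjusted p = 0.0251). Col5a2 (Entrez 12832) ran from 7.18 through 8.28 to 8.41 and from 6.77 through 7.48 to 7.82 (-0.76, SE 0.239, adjusted p = 0.0264). In both, Vehicle 5 was the lowest Vehicle library and lay among the TZP values. After the correction for transcript length described below, Col5a1 (adjusted p = 0.0799) and Col5a2 (adjusted p = 0.0743) did not pass by limma. Col27a1 (Entrez 373864), a fibrillar chain known from cartilage, was lower by a smaller amount, with 7.46, 7.54 and 7.77 in Vehicle and 6.58, 7.14 and 7.52 in TZP (-0.49, SE 0.145, adjusted p = 0.0195).

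Col1a1 (Entrez 12842) and Col1a2 (Entrez 12843) encode the chains of type I collagen, the main fibril protein. Col1a1 had 8.91, 10.22 and 10.49 as lowest, median and highest value in Vehicle and 8.42, 9.75 and 10.30 in TZP. The 2 groups overlapped over most of their range. Its log2 change was -0.46 (95% interval -1.20 to 0.28, adjusted p = 0.374). Col1a2 gave 8.99, 10.18 and 10.46 against 8.54, 9.70 and 10.12 (-0.50, interval -1.13 to 0.13, adjusted p = 0.248). Col3a1 (Entrez 12825), which mixes with type I in soft tissues, gave 10.20, 11.57 and 11.70 against 10.02, 10.89 and 11.44 (-0.52, interval -1.14 to 0.11, adjusted p = 0.227). These intervals include both no change and a fall as large as that of Col12a1 or nearly so, and a change was not detectable with this spread.

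**Figure D2:**
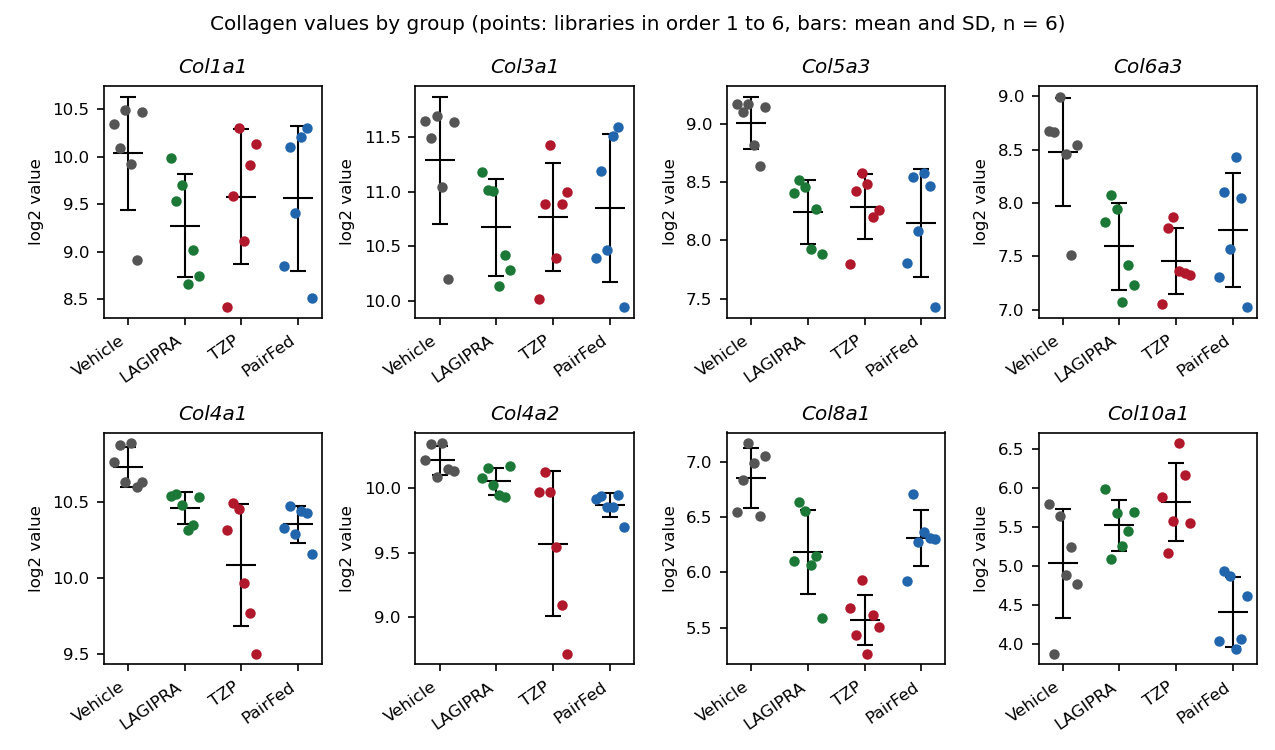
Log2 values of 8 collagens in each library (points, in replicate order within each group), with the group mean and SD (bars, n = 6). Col8a1 in TZP lies below every Vehicle value, Col4a1 and Col4a2 drop in TZP 4 to 6, Col1a1 and Col3a1 spread widely in every group, and Col10a1 is lowest in PairFedVehicle.

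In the basement membrane class the type IV chains fell together in TZP, and the fall was uneven over the libraries. Col4a1 (Entrez 12826) had 10.59, 10.69 and 10.88 as lowest, median and highest value in Vehicle, with an SD of 0.13. The TZP libraries 1 to 6 had 10.31, 10.49, 10.45, 9.97, 9.77 and 9.50. All lay below the lowest Vehicle value, with the deepest values in 4, 5 and 6, and the log2 change was -0.65 (SE 0.125, adjusted p = 0.0016). Col4a2 (Entrez 12827) had 10.08, 10.18 and 10.35 in Vehicle and 9.97, 10.12, 9.97, 9.55, 9.10 and 8.72 in TZP 1 to 6. Only TZP 2 reached the Vehicle range, and the change was -0.64 (SE 0.161, adjusted p = 0.00773). TZP 4, 5 and 6 are also the libraries with the most negative length slopes.

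Col18a1 (Entrez 12822), the precursor of endostatin, ran from 7.04 through 7.49 to 7.64 in Vehicle and from 6.37 through 6.85 to 7.23 in TZP (-0.54, SE 0.191, adjusted p = 0.0446). Its groups overlapped slightly. Col15a1 (Entrez 12819), which links basement membranes to the matrix beneath, ran from 7.55 through 8.20 to 8.29 and from 6.998 through 7.54 to 7.93 and did not pass (-0.52, SE 0.211, adjusted p = 0.082). Col4a3 and Col4a4 belong to the type IV network of specialised membranes such as that of the kidney filter. Col4a3 was at 5.33 ± 0.31 in Vehicle and 5.76 ± 0.18 in TZP (SD, n = 6), a change of 0.43 that did not pass (adjusted p = 0.117). Col4a4 was at 4.79 ± 0.26 and 4.62 ± 0.38 (adjusted p = 0.623).

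The other collagens held the largest falls of the family. Col8a1 (Entrez 12837), a short-chain collagen of vessel walls and endothelial layers, had 6.51, 6.92 and 7.17 in Vehicle and 5.26, 5.56 and 5.93 in TZP. The groups did not overlap, and the change of -1.28 (SE 0.160, adjusted p = 0.000198) is 2.43-fold on this scale. Col12a1 (Entrez 12816), which binds the surface of fibrils, had 5.004, 5.53 and 5.85 against 3.84, 4.34 and 4.65, again with no overlap (-1.17, SE 0.179, adjusted p = 0.000539). Col14a1 (Entrez 12818), a relative with the same place on fibrils, had 4.96, 5.62 and 5.92 against 4.51, 5.13 and 5.32 (-0.57, SE 0.202, adjusted p = 0.0453). Col28a1 (Entrez 213945), known from peripheral nerve, had 2.94, 3.37 and 3.53 against 2.21, 2.66 and 2.90 with no overlap (-0.72, SE 0.160, adjusted p = 0.00366). It was the weakest tested member, and a scale with an offset near 1 would understate its fold change.

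The type VI chains form beaded microfibrils at the surface of adipocytes and fibroblasts. Col6a3 (Entrez 12835) had 7.51, 8.60 and 8.999 in Vehicle and 7.05, 7.35 and 7.87 in TZP (-1.02, SE 0.244, adjusted p = 0.00596). Vehicle 5 alone of the Vehicle libraries lay within the TZP range. Col6a1 (Entrez 12833) had 7.88, 8.84 and 9.12 against 7.65, 8.24 and 8.67 and did not pass (-0.48, SE 0.239, adjusted p = 0.156). Col6a2 (Entrez 12834) had 7.20, 8.15 and 8.37 against 6.99, 7.67 and 8.13 (-0.37, SE 0.249, adjusted p = 0.30). The transcript of Col6a3 is 10106 bases long, against 4100 for Col6a1 and 4912 for Col6a2.

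Col10a1 (Entrez 12813), the short-chain collagen of hypertrophic cartilage, was the member that rose. It had 3.88, 5.07 and 5.79 in Vehicle and 5.16, 5.73 and 6.57 in TZP, with overlap (0.78, SE 0.279, adjusted p = 0.0468). Of 7 cartilage markers listed, 3 had rows. Sox9, with a mean of 6.15, was tested and had a change of -0.25 that did not pass, while Comp (mean 2.14) and Cnmd (mean 2.41) lay below the filter. The summed level of the 3 ran from 5.88 to 7.002 in Vehicle and from 5.88 to 6.71 in TZP. The membrane-spanning Col13a1 (0.25, adjusted p = 0.334), the fibril-associated Col16a1 (-0.33, adjusted p = 0.337) and Col19a1 (0.44, adjusted p = 0.412) did not pass.

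**Figure D3:**
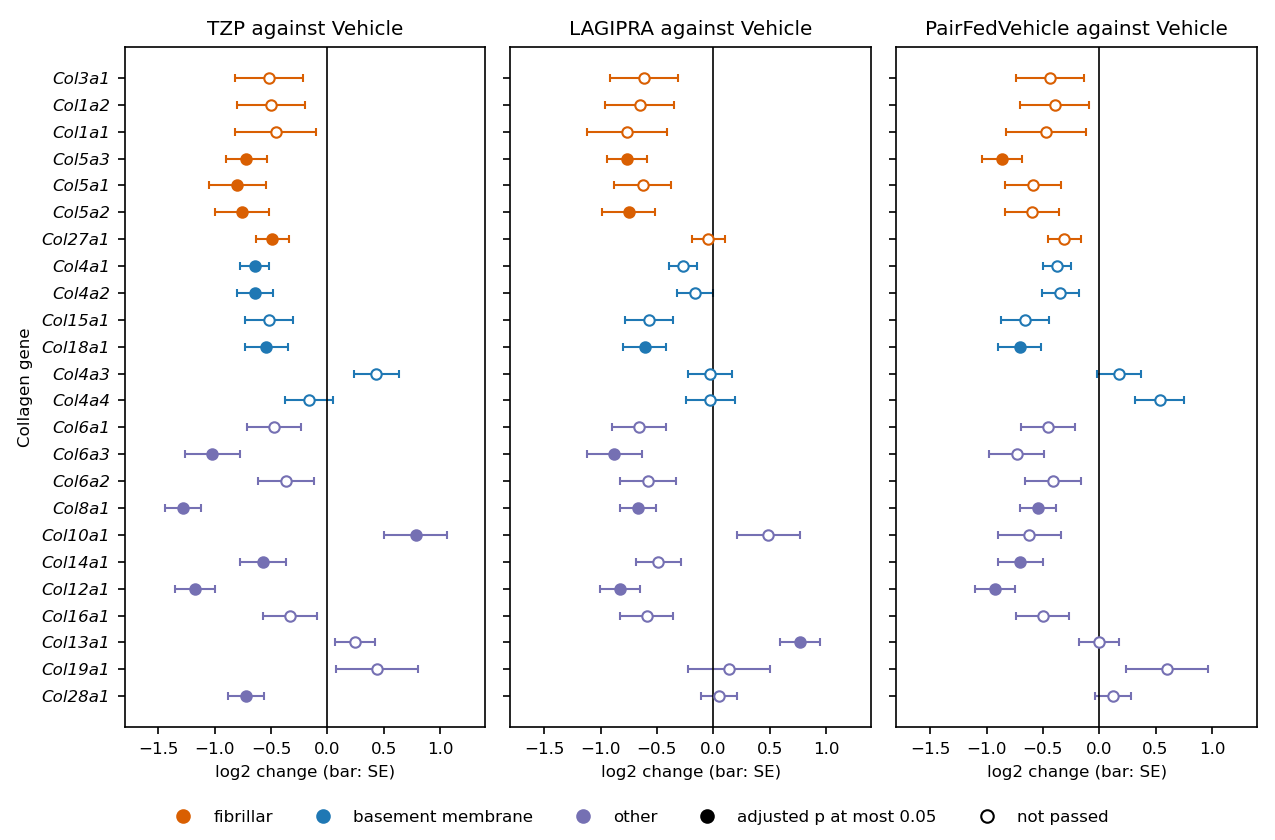
Log2 change (horizontal axis, bars are SE) of each tested collagen (rows) in the 3 comparisons with the shared Vehicle libraries, coloured by class, with filled points at an adjusted p of at most 0.05. Most points lie left of 0 in each panel, Col8a1 is at -1.28 for TZP, and Col13a1 at 0.77 for LAGIPRA.

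The long transcripts of the collagens and the length slopes of TZP libraries 3 to 6 were allowed for in several ways. After each library was corrected for its slope, 7 collagens were lower and 2 higher (Col10a1 and Col4a3), and 10.9% of all genes were lower. The class medians were then -0.39, -0.41 and -0.39 for the fibrillar, basement membrane and other genes. The correction did not remove the split by length over all genes, of which 29.4% of those with 5000 bases or more were still lower. Lower after correction were Col4a1 (-0.49), Col4a2 (-0.49), Col5a3 (-0.57), Col6a3 (-0.80), Col8a1 (-1.16), Col12a1 (-0.93) and Col28a1 (-0.64).

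With the slope as a covariate in the fit, 1 collagen passed, Col8a1 at -1.13 (adjusted p = 0.0291), and 0.342% of all tested genes were lower. Col12a1 had a change of -1.04 (adjusted p = 0.0538) and Col6a3 of -0.75 (adjusted p = 0.259). Col4a1 went to -0.16 and Col4a2 to 0.04. The median was -0.73 over the fibrillar and -0.06 over the basement membrane genes. The latter class was mixed: Col18a1 was at -0.77 and Col15a1 at -0.63, and neither passed by limma (adjusted p = 0.142 and 0.28). Col4a3 was at 0.38 and Col4a4 at 0.25. In this design the slope differs between TZP and Vehicle, so a difference between the groups and the slope cannot be fully told apart.

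TZP libraries 1 and 2 have slopes like those of the other groups, and they gave a different picture from TZP 3 to 6. Against the 6 Vehicle libraries, TZP 1 and 2 had 2 of 24 collagens lower, Col8a1 (-1.29, adjusted p = 0.00849) and Col12a1 (-1.16, adjusted p = 0.0186), where 1.58% of all genes were lower. Their class medians were -0.90 for fibrillar, -0.25 for basement membrane and -0.76 for other collagens. Within the basement membrane class, Col18a1 was at -0.88 and Col15a1 at -0.82 (limma, adjusted p = 0.063 and 0.113). The type IV chains there ran from -0.33 (Col4a1) to 0.37 (Col4a3). With TZP 3 to 6, 8 were lower and 2 higher, where 13% of all genes were lower, and the medians were -0.63, -0.37 and -0.32. The difference between the 2 sets of TZP libraries was not tested.

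Single genes show where the sets part. Col4a2 was at -0.17 with TZP 1 and 2 (adjusted p = 0.232) and at -0.88 with TZP 3 to 6 (adjusted p = 0.000146). Col4a1 was at -0.33 (adjusted p = 0.0596) and -0.81 (adjusted p = 4.44e-05), and Col27a1 at -0.10 and -0.68. The type I genes ran the other way, with Col1a1 at -1.04 and -0.17 and Col1a2 at -0.95 and -0.28, none of which passed. TZP 1 weighed most in that difference, with Col1a1 at 8.42 and Col1a2 at 8.54. TZP 2, at 9.58 and 9.59, lay inside the range of TZP 3 to 6 (9.11 to 10.3 and 9.09 to 10.1), though below TZP 3, 5 and 6. Col8a1 (-1.29 and -1.27), Col12a1 (-1.16 and -1.18) and Col6a3 (-1.07 and -0.998) had nearly equal changes in both sets.

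**Figure D4:**
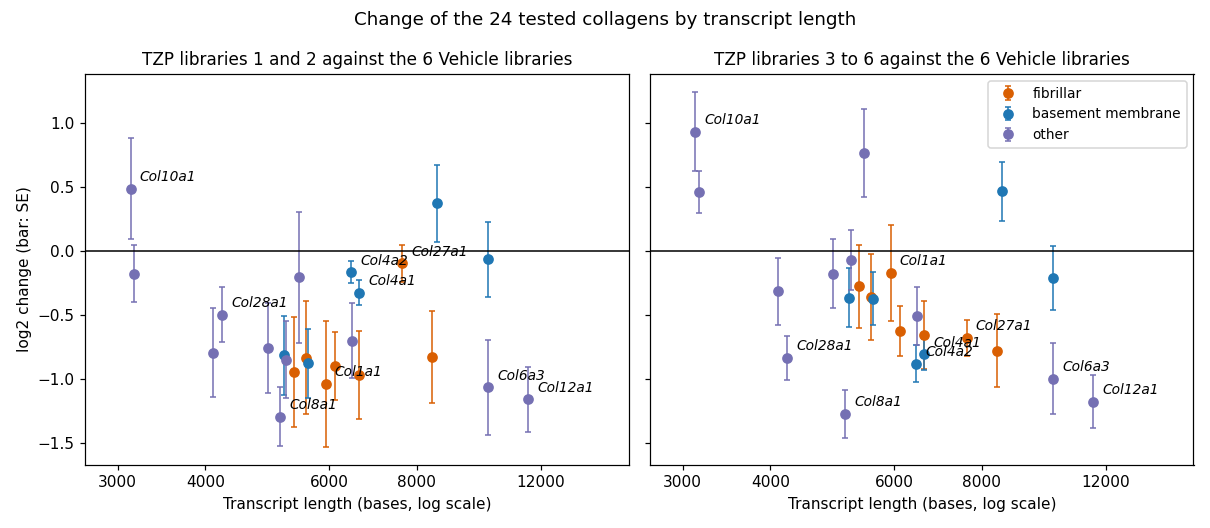
Log2 change of the 24 tested collagens (points, bars are SE) against transcript length in bases (log scale), for TZP libraries 1 and 2 (left) and 3 to 6 (right), each against the 6 Vehicle libraries. Col4a1 and Col4a2 lie at -0.33 and -0.17 on the left and at -0.81 and -0.88 on the right, and Col8a1 and Col12a1 are near -1.2 in both.

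In the comparison of LAGIPRA with Vehicle, which asked about activation of the GIP receptor alone, 6 of 24 collagens fell and 1 rose. Over all tested genes 13.7% passed in either direction and 5.03% as lower, and 7.54% of genes of 5000 bases or longer were lower. The median change was -0.58 over the collagens and 0.03 over all genes. In 3 collagens (Col4a1, Col5a3 and Col18a1) all LAGIPRA values lay below all Vehicle values, against 1.49% of all tested genes. By class, 2 of 7 fibrillar, 1 of 6 basement membrane and 3 of 11 other genes fell, with medians of -0.65, -0.22 and -0.58.

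Col12a1 ran from 4.19 through 4.66 to 5.08 in LAGIPRA (-0.83, SE 0.179, adjusted p = 0.00836), which reached into the lower end of Vehicle. Col5a3 ran from 7.88 through 8.34 to 8.52 (-0.77, SE 0.178, adjusted p = 0.0115), entirely below Vehicle. Col8a1 ran from 5.59 through 6.13 to 6.64 (-0.67, SE 0.160, adjusted p = 0.0127), with the highest LAGIPRA libraries inside the Vehicle range. Col6a3 (-0.88), Col5a2 (-0.75) and Col18a1 (-0.61) also fell, with adjusted p of 0.0225, 0.04 and 0.0379. Col1a1 was at -0.76 (adjusted p = 0.143), Col3a1 at -0.61 (adjusted p = 0.169) and Col4a2 at -0.16 (adjusted p = 0.514).

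Col13a1 (Entrez 12817), a membrane-spanning collagen known from muscle and nerve junctions, was the member that rose in LAGIPRA. It had 3.51, 3.64 and 4.005 in Vehicle and 4.16, 4.48 and 4.73 in LAGIPRA. The groups did not overlap (0.77, SE 0.178, adjusted p = 0.0113). Skeletal muscle markers averaged 7.08 ± 3.71 in Vehicle and 8.98 ± 1.21 in LAGIPRA (SD, n = 6), with 0 of 10 passing the limma test and 0 at an unadjusted p under 0.05. Of 6 tested Schwann cell markers 2 rose, S100b and Cdh19, where 13.7% of all genes passed in either direction. The part of either cell type in the result was not tested. Without Vehicle 1, TZP 3 and PairFedVehicle 5, the libraries lowest in muscle markers, 4 collagens passed instead of 7. For that fit the share of all genes is not given here. Col13a1 still passed there, as it did under 21 of the 22 alternatives that tested it. The exception was the covariate described next (limma, adjusted p = 0.0966).

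With the level of a single read in each library as a covariate, 0 collagens passed in LAGIPRA against Vehicle by limma, with 7 at an unadjusted p under 0.05, and 0.261% of all genes passed. The medians were then -0.22, -0.30 and -0.19 over the fibrillar, basement membrane and other genes, with Col1a1 at -0.21, Col3a1 at -0.19 and Col12a1 at -0.69. That level averaged 1.35 ± 0.25 in LAGIPRA and 1.04 ± 0.17 in Vehicle (SD, n = 6). In this design the level differs between the groups, so it cannot be fully told apart from a difference between them. The LAGIPRA counts also depended on single libraries. Without Vehicle 5, which had the lowest fibrillar values of its group, 15 collagens were lower and 1 higher in LAGIPRA, where 9.85% of all genes were lower. In TZP 14 were then lower and 1 higher, where 12.1% of all genes were lower. Without Vehicle 1 or Vehicle 3, or without LAGIPRA 4, 5 or 6, 4 collagens passed, and the share of all genes is not given here for these fits. Fibroblast markers had 1 of 7 lower in LAGIPRA (Ly6a), with a summed level from 9.94 to 10.5. Macrophage markers had 4 of 7 lower (C1qa, C1qb, Cd68 and Mrc1), with a summed level from 10.9 to 11.9 against 11.47 to 12.7 in Vehicle. Brown adipocyte markers had 3 of 7 higher (Ucp1, Cidea and Pparg), with a summed level from 16.3 to 16.5, where 13.7% of all genes passed in either direction. The part of these cells in the result was not tested.

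PairFedVehicle against Vehicle compared restricted with free feeding, without a drug. Of 24 collagens 5 fell and 0 rose by limma, and 15 were at an unadjusted p under 0.05. Over all tested genes 8.61% passed in either direction and 3.66% as lower. The medians were -0.46 over the collagens, 0.02 over all genes, and -0.47, -0.36 and -0.50 over the fibrillar, basement membrane and other collagens. In 4 collagens the groups did not overlap, all lower in PairFedVehicle (Col4a1, Col4a2, Col5a3 and Col12a1), against 2.35% of all tested genes.

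Col5a3 ran from 7.42 through 8.27 to 8.57 in PairFedVehicle (-0.86, SE 0.178, adjusted p = 0.00363) and lay wholly below Vehicle. Col12a1 ran from 4.09 through 4.55 to 4.99 (-0.92, SE 0.179, adjusted p = 0.00218) and also lay below Vehicle. Col14a1 (-0.70, adjusted p = 0.033), Col18a1 (-0.70, adjusted p = 0.0225) and Col8a1 (-0.54, adjusted p = 0.0376) fell as well, with overlap. Col4a1 had 10.15, 10.38 and 10.47 in PairFedVehicle, below every Vehicle value, but its change of -0.38 did not pass (SE 0.125, adjusted p = 0.0625). Without Vehicle 3, or without PairFedVehicle 1, 3 or 6, 2 collagens passed, and without Vehicle 5, 8 did, all lower, where 3.79% of all genes were lower. Without Vehicle 1 or Vehicle 6, 3 did. Apart from the fit without Vehicle 5, the share of all genes is not given here for these removals. Fibroblast markers had 1 of 7 lower (Mfap5), with a summed level from 10.1 to 10.5. Of 7 macrophage markers 0 passed by limma, with 2 at an unadjusted p under 0.05 (median -0.30). Brown adipocyte markers had 4 of 7 higher (Ucp1, Cidea, Fabp4 and Pparg), with a summed level from 16.4 to 16.5, where 8.61% of all genes passed in either direction. The part of these cells in the result was not tested.

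TZP against PairFedVehicle compared the drug with a vehicle group on a set ration. Of 24 collagens 3 fell and 1 rose, where 16.4% of all genes passed in either direction, and the median was -0.09 over the collagens and near 0 (-0.002) over all genes. Col8a1 ran from 5.92 through 6.30 to 6.71 in PairFedVehicle and was lower in TZP (-0.74, SE 0.160, adjusted p = 0.0034), with TZP 3 at 5.93 just above the lowest PairFedVehicle library. Col28a1 had 3.04, 3.48 and 3.78 in PairFedVehicle, above every TZP value (-0.84, SE 0.160, adjusted p = 0.00124). Col4a4 had 4.997, 5.20 and 5.96 against 4.09, 4.72 and 5.04 (-0.70, SE 0.215, adjusted p = 0.0278), and its transcript of 10108 bases is among the longest of the members.

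Col10a1 had its lowest group in PairFedVehicle, with 3.94, 4.35 and 4.93, below every TZP and every LAGIPRA value. It was higher in TZP by 1.405 (SE 0.279, adjusted p = 0.00176) and in LAGIPRA by 1.11 (SE 0.279, adjusted p = 0.0107). The summed level of the 3 cartilage markers was 5.09 to 6.76 in PairFedVehicle, against 6.02 to 7.17 in LAGIPRA and 5.88 to 6.71 in TZP. Sox9, which drives cartilage genes and is also active in other cells, was lower in PairFedVehicle than in Vehicle (-0.97, SE 0.25, adjusted p = 0.0166). The part of such cells in the result was not tested. None of the 7 fibrillar genes passed in TZP against PairFedVehicle by limma, with 0 at an unadjusted p under 0.05, and their changes lay between -0.21 and 0.14.

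LAGIPRA against PairFedVehicle gave 2 collagens higher and 0 lower by limma, with 3 at an unadjusted p under 0.05, where 11.9% of all genes passed. These were Col10a1 and Col13a1. Col13a1 had 3.18, 3.67 and 4.13 in PairFedVehicle, below every LAGIPRA value (0.77, SE 0.178, adjusted p = 0.00588). TZP against LAGIPRA gave 1 collagen, Col28a1, with 3.04, 3.41 and 3.57 in LAGIPRA above every TZP value (-0.77, SE 0.160, adjusted p = 0.0468), where 0.4% of all genes passed. That call ended when any of LAGIPRA 2 to 6 or TZP 4, 5 or 6 was left out, and 4 or 5 collagens passed without TZP 1 or TZP 2.

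Chains that belong to the same collagen or fibril were compared within each library. Col1a1 minus Col1a2 averaged 0.03 ± 0.06 in Vehicle, -0.09 ± 0.08 in LAGIPRA, 0.07 ± 0.13 in TZP and -0.05 ± 0.14 in PairFedVehicle (SD, n = 6). Col4a1 minus Col4a2 averaged 0.52 ± 0.04, 0.41 ± 0.04, 0.51 ± 0.18 and 0.48 ± 0.07 in that order. Across 5 chain pairs and 6 comparisons, none of the 30 exact two-sided permutation tests passed after adjustment. The smallest raw p was 0.00649, for Col4a1 minus Col4a2 in LAGIPRA against Vehicle (difference -0.11, adjusted p = 0.18, where 0.00216 is the smallest p that 6 against 6 allow).

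Pairs of collagens were compared by their variation inside the groups. Deviations from the group mean over the 24 libraries gave r = 0.997 and rho = 0.989 between Col1a1 and Col1a2, and r = 0.968 and rho = 0.950 between Col1a1 and Col3a1. Col1a1 and the type VI chain Col6a1 gave r = 0.974 and rho = 0.961, and Col4a1 and Col4a2 gave r = 0.963 and rho = 0.942. Each had a permutation p of 1e-05 for r and for rho, the smallest that 100000 permutations within groups can give (adjusted over 9 relations, 2.25e-05). Without the 2 libraries farthest from the median these r were 0.995, 0.956, 0.965 and 0.929. Col1a1 and Col4a1 gave r = 0.090 and rho = 0.222 (permutation p = 0.737 and 0.347, adjusted 0.737 and 0.347), with r = 0.289 without the 2 farthest libraries and 0.567 without TZP. Inside single groups its r was 0.165 in Vehicle, 0.582 in LAGIPRA, -0.262 in TZP and 0.907 in PairFedVehicle, and that of Col4a1 and Col4a2 lay between 0.845 and 0.987. Col1a1, Col1a2, Col3a1, Col5a1 and Col5a2 were lowest in Vehicle 5, in LAGIPRA 4 to 6, in TZP 1 and 4 and in PairFedVehicle 1, 3 and 6, as the heat map shows.

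Marker levels were compared in the same way. Col1a1 and the mean of the 7 fibroblast markers gave r = 0.823 and rho = 0.805 (permutation p = 2e-05 and 5e-05, adjusted 3.6e-05 and 9e-05; r = 0.791 without the 2 farthest libraries), with r from 0.591 to 0.993 inside single groups. Col4a1 and the fibroblast mean gave r = 0.113 and rho = 0.255 (permutation p = 0.611 and 0.243, adjusted 0.688 and 0.273; r = 0.258 without the 2 farthest and 0.473 without TZP), with r from -0.204 inside TZP to 0.788 inside PairFedVehicle. Col1a1 and the mean of 11 endothelial markers gave r = -0.544 and rho = -0.507 (permutation p = 0.0106 and 0.0169, adjusted 0.0159 and 0.0254; r = -0.531 without the 2 farthest), with r from -0.831 to -0.259 inside single groups. Col4a1 and the endothelial mean gave r = 0.631 and rho = 0.445 (permutation p = 0.024 and 0.0875, adjusted 0.0309 and 0.112). That relation rested on TZP, with r = 0.361 without the 2 farthest libraries and 0.104 without TZP. Endothelial markers had 5 of 11 lower in TZP than in Vehicle (Cldn5, Cdh5, Kdr, Pecam1 and Tek), with a summed level from 11.52 to 12.04 against 12.2 to 12.8, and no marker was at the zero level. The sum rests mostly on Cldn5, which averaged 12.03 in Vehicle, where the sum averaged 12.53. It averaged 12.09 in LAGIPRA and 12.11 in PairFedVehicle. The mean of the markers was 7.56 in Vehicle, 7.54 in LAGIPRA, 7.62 in PairFedVehicle and 7.29 in TZP. Emcn (6.35 in Vehicle and 6.61 in TZP) and Egfl7 (6.98 and 7.06) were higher in TZP and did not pass. Of 9 pericyte and smooth muscle markers 4 were lower (Notch3, Pdgfrb, Rgs5 and Abcc9) and 1 higher (Cnn1). The share lower among all tested genes was 10.3%, and 22% passed in either direction. Length correction left 5 endothelial and 4 pericyte and smooth muscle markers lower. A limma fit that included the length slope left 1 and 0 lower, where 4 and 1 had an unadjusted p below 0.05. Against Vehicle, TZP 1 and 2 alone gave 1 lower in each list, and TZP 3 to 6 gave 5 and 4. The mean level of the macrophage markers was lowest of its group in Vehicle 5 (7.70, with the other Vehicle libraries at 8.41 or higher), the library lowest in fibrillar genes, and LAGIPRA 4, 5 and 6 were the lowest of their group in both. The part of these cell types in the collagen values was not tested.

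**Figure D5:**
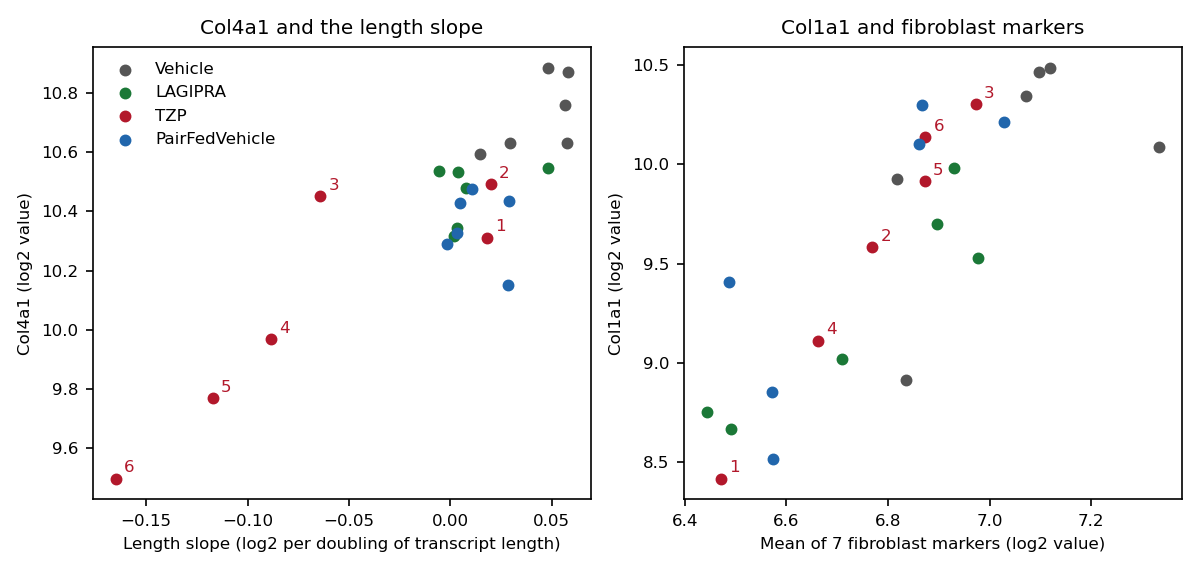
Left, Col4a1 log2 value against the length slope (log2 per doubling of transcript length) in each library; right, Col1a1 log2 value against the mean log2 value of 7 fibroblast markers, coloured by group, with TZP libraries numbered. TZP 4, 5 and 6 have the lowest Col4a1 (9.97, 9.77 and 9.50) and the most negative slopes, while Col1a1 in TZP 1 (8.42) is the lowest of all libraries.

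Genes that build the basement membrane beside type IV collagen were mostly lower in TZP. Of 13 tested laminin, nidogen, perlecan and agrin genes, 10 fell and 0 rose against Vehicle (median -0.75), where 10.3% of all genes and 39.3% of genes of 5000 bases or longer were lower. In LAGIPRA 2 of 13 fell (median -0.28) and in PairFedVehicle 2 of 13 (median -0.27), where 5.03% and 3.66% of all genes were lower in that order. The laminin chain Lama4, made by vessels and fat, went from 7.18 ± 0.20 in Vehicle to 6.40 ± 0.25 in TZP (SD, n = 6; -0.78, SE 0.106, adjusted p = 0.000281). Nid1, which joins laminin to type IV collagen, went from 8.19 ± 0.15 to 6.63 ± 0.79 (-1.56, SE 0.236, adjusted p = 0.000539), and Lamc1 from 7.48 ± 0.21 to 6.18 ± 0.51 (-1.30, SE 0.179, adjusted p = 0.00035). These genes are long too, with a median of 6046 bases. After correction for transcript length 9 were lower (median -0.55), with Nid1 at -1.42, Lamc1 at -1.12 and Lama4 at -0.64. With TZP 1 and 2 alone 3 were lower (median -0.27), and when the fit took the length slope as a covariate 0 were lower by limma, with 5 at an unadjusted p under 0.05 (median -0.13).

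Genes that fold and modify procollagen were set side by side in the same comparisons. Of 20 tested, 3 fell in TZP against Vehicle (P4hb, P3h2 and Sec24d; median -0.16) and 6 fell and 1 rose in PairFedVehicle (median -0.20). Over all tested genes 10.3% were lower in TZP and 3.66% in PairFedVehicle. The 6 that fell there were Serpinh1, P4ha1, P4ha2, P3h2, Plod3 and Sec24d. Serpinh1, the collagen chaperone, had 8.32 to 8.54 in Vehicle and 7.59 to 8.05 in PairFedVehicle (-0.61, SE 0.0902, adjusted p = 0.000126). The prolyl hydroxylase chain P4ha2 had 4.70 to 5.16 in Vehicle and 4.05 to 4.60 in PairFedVehicle (-0.62, SE 0.116, adjusted p = 0.0017). Against PairFedVehicle, Serpinh1, P4ha1 and P4ha2 were higher in TZP (0.38, 0.63 and 0.62) and in LAGIPRA (0.49, 0.59 and 0.65), and all these passed. In LAGIPRA against Vehicle 4 of 20 fell and 1 rose (median -0.20), where 5.03% of all genes were lower.

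Of 10 tested genes for trimming and crosslinking, 4 fell in TZP against Vehicle (Lox, Pxdn, Loxl2 and Adamts2; median -0.34), 2 in LAGIPRA (Lox and Adamts2) and 2 in PairFedVehicle (Lox and Pcolce). Over all tested genes 10.3%, 5.03% and 3.66% were lower in that order. The 10 genes have a median length of 4589.5 bases, against 2914 over all tested genes. After correction for transcript length 3 were lower in TZP, and with TZP 1 and 2 alone 2. With the length slope as a covariate 0 were lower by limma, with 5 at an unadjusted p under 0.05. Lox, which crosslinks fibrils, went from 7.28 ± 0.23 in Vehicle to 6.51 ± 0.22 in TZP (SD, n = 6; -0.77, SE 0.13, adjusted p = 0.000854). Pxdn, which crosslinks type IV collagen, went from 6.13 ± 0.26 to 3.79 ± 1.49, with TZP values from 2.08 to 5.54 (-2.34, SE 0.422, adjusted p = 0.00115). Pcolce, which helps remove the end of procollagen, had 9.47 to 9.76 in Vehicle and 8.62 to 9.33 in PairFedVehicle (-0.79, SE 0.12, adjusted p = 0.000174).

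Among 8 tested collagen receptors 3 fell in TZP (Itgb1, Ddr2 and Mrc2; median -0.21), 2 in LAGIPRA (Itgb1 and Ddr2; median -0.25) and 1 in PairFedVehicle (Ddr2; median -0.26). Over all tested genes 10.3%, 5.03% and 3.66% were lower in that order. The receptor genes have a median length of 5419.5 bases. After correction for transcript length 3 were lower in TZP, and with TZP 1 and 2 alone 1. With the length slope as a covariate 0 were lower by limma, with 3 at an unadjusted p under 0.05. Of 7 fibril-binding proteoglycans, Ogn alone fell in TZP (-0.36, SE 0.114, adjusted p = 0.026; list median -0.31), where 10.3% of all genes were lower. By limma 0 passed in LAGIPRA and in PairFedVehicle, with 2 and 0 at an unadjusted p under 0.05. Of 6 collagen-degrading enzymes 0 passed by limma in any of the 3 comparisons with Vehicle, with 0, 1 and 0 at an unadjusted p under 0.05 in TZP, LAGIPRA and PairFedVehicle.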

How the data were processed

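PolyA RNA of brown fat was sequenced, after TRIzol and RNeasy lipid kit extraction per the labels. The submitters' processing notes name cutadapt 1.9.1 and GSNAP, without their roles. Build, annotation, read counter and strand handling are not given in the sources used here, and read numbers are not known. The values as deposited by the authors were taken as log2 expression, 1 per gene and library, and quantile normalized. This scale was inferred from the values, which ran from -0.50 to 22.3, and an offset near 1 would understate changes of weak genes.

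A filter removed the 25% of genes lowest in mean (5754, under 2.86). The remaining 17263 entered limma 3.58.1 in R 4.3.3. It used 1 mean per group over all 24 libraries, empirical Bayes with a mean-variance trend, and two-sided p adjusted by Benjamini-Hochberg over all tested genes with a threshold of 0.05. No library was left out. The p-values measure the spread between libraries of a group, since the labels do not say that these came from separate animals. Transcript length was that of the longest GENCODE M21 transcript, known for 15407 tested genes (89.2%), and the length slope regresses a library's deviation from the average library on log2 length. Level per 1000 bases is the mean minus log2 of length in units of 1000 bases. The level of a single read was inferred as the most frequent value at the low end of each library. Motifs and start sites come from the RefSeq promoter table.

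Chain differences used exact permutation tests over all assignments of 6 and 6, adjusted over 30 tests. Correlations used 100000 permutations within groups. The procedure was tested on simulated data. All members are accounted for. Sample values are given for Col1a1, Col1a2, Col3a1, Col5a1, Col4a1, Col4a2, Col15a1, Col18a1, Col6a1, Col6a2, Col6a3 and the other members that passed in any comparison, and up to 4 genes per partner list by smallest p in TZP against Vehicle. Partner genes named for other comparisons, and the members named without passing, were chosen after their values were seen. Members and lists were chosen with earlier results of these data known. Alternatives were other filters, scaling, variance models, covariates, replicate block, length correction, TZP subsets and removal of each library. Figures used matplotlib 3.10.9 in Python 3.11.15.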

Additional observations from a re-analysis of the deposited data

Results flagged for a closer look

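In 84 combinations of a named collagen and a group of 6 libraries, 5 held a library whose gap to its nearest neighbour was over 0.625 of the range of the group, which chance gives in about 5% of groups. Col1a1 in Vehicle 5 was at 8.91, with the other Vehicle libraries from 9.93 to 10.49. Col6a3 in Vehicle 5 was at 7.51, with the others from 8.46 to 8.999. Col5a2 in Vehicle 5 was at 7.18, with the others from 7.98 to 8.41. Col27a1 in LAGIPRA 5 was at 7.23, with the others from 7.54 to 7.63. Col4a4 in LAGIPRA 4 was at 3.82, with the others from 4.72 to 5.24. Of the 5, 3 came from the same library, Vehicle 5, and Col1a1, Col5a2 and Col6a3 vary together, so these are not independent.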

How the results depend on the processing

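Reads per library are unknown, so no limit in reads can be given, and weak members are the least certain. The level of a single read, inferred from the values, stands in for depth below. Of 32 collagen results that passed in a comparison, 4 were tested and passed under every alternative run: Col8a1 in TZP against Vehicle, Col12a1 and Col5a3 in PairFedVehicle against Vehicle, and Col10a1 in LAGIPRA against PairFedVehicle. Col13a1 in LAGIPRA against PairFedVehicle passed under the 22 alternatives that tested it and was not tested among genes at or above the median level. Only Col4a2, TZP against Vehicle, changed sign, to 0.0356, when the length slope was a covariate. For collagen genes called, TZP against Vehicle (13), the count was 1 with the length slope as a covariate, 8 with the level of 1 read in a library as a covariate, and 2 with TZP 1 and 2 alone, also after length correction, a setting chosen after seeing the data; it ran from 8 to 15 over the removal of single libraries. For LAGIPRA against Vehicle (7) it was 17 with array quality weights, 11 with the 2 groups alone, 0 with the 1-read covariate and 4 without the 3 libraries low in muscle, and 4 to 16 over single removals. For PairFedVehicle against Vehicle (5) it was 8 with array weights and 2 to 8 over single removals. For TZP against PairFedVehicle (4) it was 2 with the slope covariate, 0 with TZP 1 and 2, 1 with these after length correction, and 3 to 5 over single removals. For TZP against LAGIPRA (1) it was 0 with genes at or above the median level, the 2 groups alone, the slope covariate, TZP 1 and 2 with or without length correction, and without the libraries low in muscle, 5 with array weights or TZP 3 to 6, 2 with the 1-read covariate, and 0 to 5 over single removals. For LAGIPRA against PairFedVehicle (2) it was 1 with genes at or above the median level, where Col13a1 was not tested. The cause of the other shifts was not tested. The share of all genes that passed moved between alternatives as well. In LAGIPRA against Vehicle, 5.03% of all genes were lower in the main fit and 9.85% without Vehicle 5. With the 1-read covariate 0.261% passed in either direction. Where a count stands without such a share, its shift cannot be read as particular to collagens. The median change in TZP against Vehicle went, for basement membrane collagens, from -0.53 to -0.061 (slope covariate), -0.27 (1-read covariate), -0.25 (TZP 1 and 2) and -0.21 (these after length correction). Unlike that median, Col18a1 was at -0.77 and Col15a1 at -0.63 with the slope covariate. For other collagens it went from -0.48 to -0.22 (no filter), -0.16 (1-read covariate), -0.76 (TZP 1 and 2) and -0.73 (these after length correction). Over single removals the medians ran from -0.74 to -0.45 for fibrillar, -0.62 to -0.42 for basement membrane and -0.64 to -0.36 for other collagens.

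With the replicate number as a replicate block, 10 collagens passed in TZP against Vehicle, 5 in LAGIPRA against Vehicle, 6 in PairFedVehicle against Vehicle, 4 in TZP against PairFedVehicle, 0 in TZP against LAGIPRA and 2 in LAGIPRA against PairFedVehicle. The share of all genes with this block is not given here. The numbers do not pair the samples: same-numbered libraries had correlations of their deviations from -0.60 to 0.38, and libraries correlated best with their own number in at most 3 of 6 cases.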
